A study of Mus musculus with 6 samples.

Results

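The genes described here are 43 members of the p53 pathway and of the cell death machinery that it feeds, namely p53 family genes and their regulators, p53 targets, the Bcl2 family, apoptosome factors, caspases and inhibitors of apoptosis (IAPs). They were found by symbol in the gene-level RNA-Seq table, where symbols that share an entry were separated and the entry with the highest FPKM (fragments per kilobase of exon, scaled to the mapped fragments of a library) was taken for each symbol. All 43 were found among 34433 symbols. Mouse embryonic stem cells (mESCs) were differentiated into motor neurons (MNs), and RNA of 3 Hb9 control and 3 A2 SMA samples was sequenced to ask how low SMN, the protein deficient in spinal muscular atrophy (SMA), alters the MN transcriptome. The Hb9 line is labelled wild type, and per the methods it is SMN2+/+;mSmn+/+. The A2 line is SMN2+/+;mSmn-/-, so both lines carry the human SMN2 transgene and only A2 lacks mouse Smn. Both lines are of FVB/N background, carry eGFP under the Hb9 promoter, were kept on fibroblast feeders as mESCs, and as embryoid bodies received 1 µM retinoic acid and 1 µM Smoothened agonist for 5 days. Cells positive for GFP and negative for propidium iodide, which enters dead cells, were sorted for RNA, so cells with leaky membranes had been removed.

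The table gives 1 FPKM value per genotype, in which the authors combined the 3 samples. Differences are therefore given without an SD or a replicate check. No test was run, and the authors' own test columns were not used. Values come as FPKM only, so the number of reads behind a single value is unknown. Each genotype is 1 mESC line, so genotype and line cannot be told apart. In a sorted population, fewer cells of a type and less RNA per cell cannot be told apart either. The library kit is not strand-specific, and 14 of the 43 genes lie at a locus that has separate entries for other genes, while the entries of 2 more, Bcl2l2 and Birc2, name other genes themselves. For 8 of the 43 genes (18.6%) Cuffdiff gave the status FAIL, its mark for a comparison it could not compute, against 14.0% of all 14926 loci that reached 1 FPKM in either genotype and were above 0 FPKM in both.

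The transcription factor p53 is held low in unstressed cells by Mdm2 and Mdm4, and after stress it induces genes of cell cycle arrest, DNA repair and apoptosis. In the mitochondrial route, BH3-only proteins block the pro-survival members of the Bcl2 family or activate Bax and Bak1, which open pores in the outer mitochondrial membrane. Released cytochrome c then joins Apaf1 and Casp9 in the apoptosome, which starts the caspase cascade that the IAPs restrain. Embryonic MNs are well known for a period of programmed cell death.

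The targeted gene matched the labels, since Smn1 was at 137 FPKM in Hb9 control and 5.26 FPKM in A2 SMA MNs (log2 ratio -4.70, A2 SMA over Hb9 control). Mnx1 (Hb9), whose promoter drives the sorted reporter, was at 41.2 and 44.2 FPKM. Isl1, another MN marker, was lower in A2 SMA MNs, at 108 and 5.95 FPKM. The summed level of the 7 MN markers in the table was 280 FPKM in Hb9 control and 55.6 FPKM in A2 SMA MNs. All 10 pan-neuronal markers were lower in A2 SMA MNs (summed level 1499 and 145 FPKM), led by Nefm at 359 and 15.2 FPKM, Nefl at 297 and 17.0 FPKM and Stmn2 (status FAIL) at 242 and 78.0 FPKM. All 7 neural progenitor markers in the table were also lower (2251 and 217 FPKM), 1 of them by less than the median locus, among them Vim at 1436 and 178 FPKM, Fabp7 at 553 and 5.52 FPKM and Sox9 at 75.4 and 4.87 FPKM. Conversely, all 12 pluripotent stem cell markers were higher (322 and 2021 FPKM), among them Pou5f1 at 98.3 and 775 FPKM, Utf1 (status FAIL) at 59.8 and 357 FPKM and Nanog at 41.4 and 236 FPKM. Fibroblast markers summed to 69.6 and 36.6 FPKM, with 6 lower, led by Col1a2 at 20.1 and 8.93 FPKM, Col1a1 (status FAIL) and Col3a1, and 2 higher, Thy1 and Dcn. Endoderm markers, led by Gata4, Sox17 and Gata6, summed to 31.9 and 20.8 FPKM, with 3 lower and 1 higher of the 4 that passed 1 FPKM. No marker in the table was at 0 FPKM in either genotype. These marker levels move with the genotype in every comparison below, and their part in the results was not tested.

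**Figure D1:**
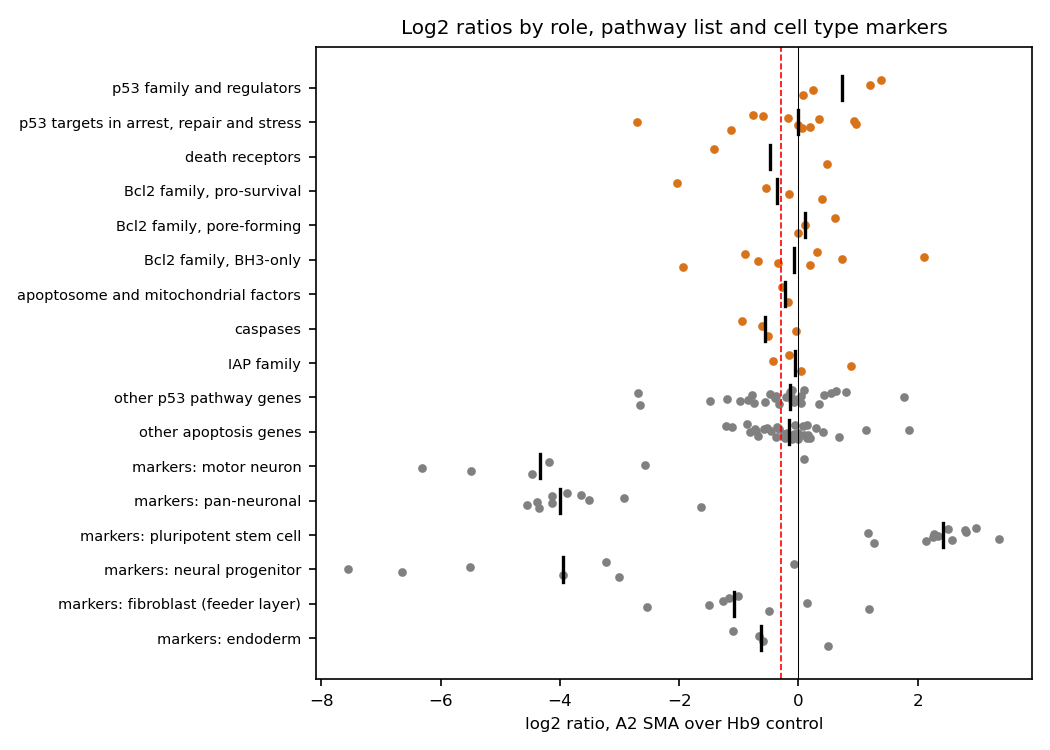
Log2 ratios, A2 SMA over Hb9 control (horizontal axis), of genes with at least 1 FPKM, by role (orange), other pathway list and cell type marker list (grey); black bars are medians and the red dashed line is the median locus at -0.29. The medians of the p53 and apoptosis lists lie between that of the pluripotent markers on the right and those of the neuronal and progenitor markers on the left, with single genes of the lists overlapping.

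The middle of the 14926 loci lay at a log2 ratio of -0.29, with quartiles at -0.89 and 0.19, and 65.9% of loci were lower in A2 SMA MNs. Ratios are therefore also given relative to this median locus. Of the 43 genes, 42 passed 1 FPKM, 19 of them higher and 23 lower in A2 SMA MNs, and their log2 ratios centred on -0.03 with quartiles at -0.58 and 0.33. Relative to the median locus, 27 were above and 15 below, and their median was 0.26. The 8 that change sign with this centring are Sesn1, Zmat3, Bcl2l2, Bok, Apaf1, Diablo, Casp8 and Xiap, so in counts of higher and lower genes below they stand by their uncentred sign. At least 2-fold higher were 3 genes (7.14%), Trp53, Trp73 and Pmaip1, where 6.83% of all loci were that much higher. At least 2-fold lower were 5 genes (11.9%), Gadd45g, Btg2, Fas, Bcl2 and Hrk, where 22.4% of all loci were that much lower. Under 1.5-fold apart were 23 genes (54.8%), where the share of all loci was 51.9%. Before centring, the shares of higher and of near-equal genes were close to those of all loci, and the share of lower genes was smaller. With a pseudocount of 1 FPKM, Trp73, Fas and Bcl2, which are near 1 FPKM, were no longer 2-fold different (log2 ratios 0.59, -0.59 and -0.96). Perp, Gadd45a and Casp2 lay just inside the 2-fold limit at 1.96-fold, 1.92-fold and 1.92-fold. Centred on the median locus, the split of 3 higher and 5 lower genes became 7 and 4 of the 42, while that of all loci went from 1020 and 3343 to 1558 and 2461 (10.4% and 16.5%).

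**Figure D2:**
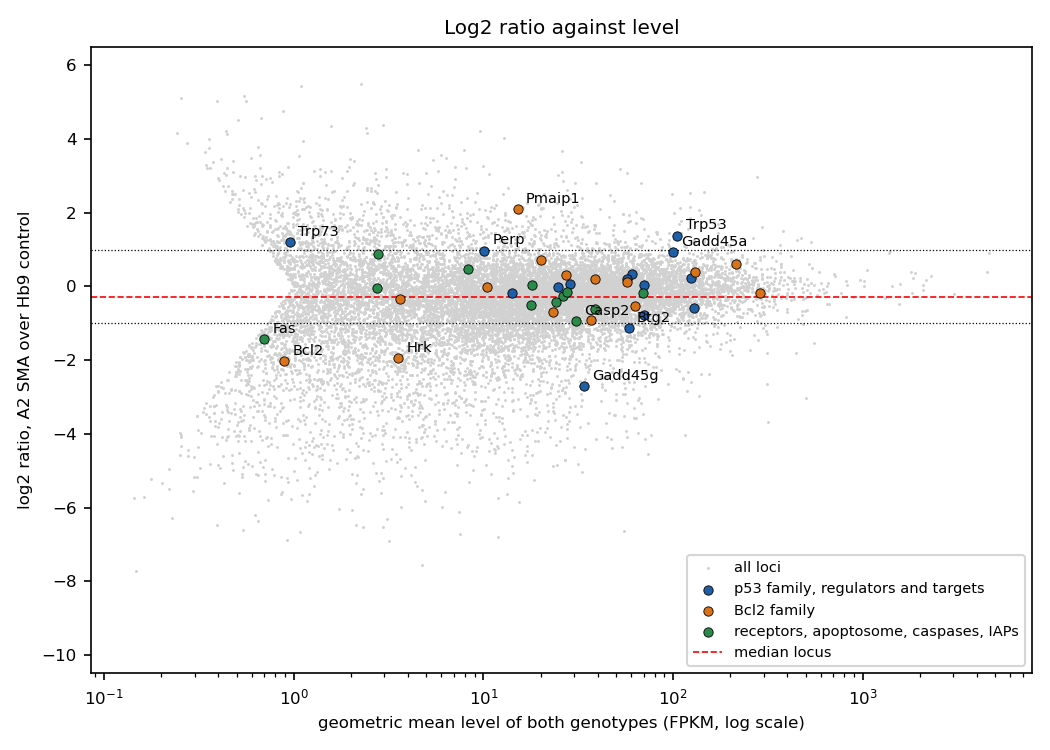
Log2 ratio, A2 SMA over Hb9 control (vertical axis), against the geometric mean FPKM of both genotypes (log axis) for all 14926 loci (grey) and the 42 genes that passed 1 FPKM (coloured by role); dotted lines mark 2-fold and the red dashed line the median locus. Pmaip1 and Trp53 lie above and Gadd45g, Hrk and Bcl2 below the 2-fold lines, and most other genes lie between them.

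Among the regulators, Trp53, which encodes p53 itself, had the highest ratio. It was at 65.2 FPKM in Hb9 control and 170 FPKM in A2 SMA MNs, 2.60-fold higher (log2 ratio 1.38, or 1.67 relative to the median locus), and 95.8% of loci had a lower ratio. Its locus (NCBI m37, chromosome 11, 69375157 to 69405375) is shared with the antisense gene Wrap53, listed at 29.5 and 36.1 FPKM, whose reads cannot be told apart from those of Trp53 where they overlap. The status of Trp53 was FAIL. Trp73, the p53 relative with roles in the nervous system, was scarce at 0.625 and 1.44 FPKM (log2 ratio 1.21; chromosome 4, 153430358 to 153514317). Mdm2, the ubiquitin ligase that degrades p53 and is itself a p53 target, was at 114 and 135 FPKM (log2 ratio 0.24). Mdm4, which blocks p53 activity, was at 27.9 and 29.3 FPKM with the status FAIL, and its other entry in the table was at 11.1 and 10.03 FPKM. The level ratio of Mdm2 to Trp53 was 1.75 in Hb9 control and 0.797 in A2 SMA MNs. The ratio of Mdm4 to Trp53 was 0.428 and 0.173. Thus all 4 genes were higher in A2 SMA MNs, but both inhibitors by less than 1.5-fold.

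The 11 targets in arrest, repair and stress did not share a direction, with 5 higher, 6 lower and a summed level of 718 and 603 FPKM. Cdkn1a, the cyclin-dependent kinase inhibitor of p53-induced arrest, was lower in A2 SMA MNs, at 91.7 and 54.0 FPKM (log2 ratio -0.76). This is RNA, and the paper lists the Cdkn1a protein as higher in SMA MNs, from immunoblots of an earlier study. Ccng1, the cyclin G1 gene, was the most abundant of the 11 in Hb9 control MNs, at 158 and 105 FPKM (log2 ratio -0.59). Btg2, an antiproliferative gene that also marks neurogenic divisions, was 2.19-fold lower, at 86.2 and 39.4 FPKM (chromosome 1, 135971747 to 135975697). These 3 targets were all also below the median locus. The Gadd45 stress genes, in contrast, went opposite ways. Gadd45a was at 72.0 and 138 FPKM (log2 ratio 0.94), and 92.6% of loci had a lower ratio. Gadd45g, which is also transiently expressed in neurogenesis, was at 86.7 and 13.3 FPKM (log2 ratio -2.70, 6.5-fold lower), the lowest ratio of all 43 genes (chromosome 13, 51942047 to 51943837). The level ratio of Cdkn1a to Gadd45a was 1.27 in Hb9 control and 0.391 in A2 SMA MNs, so the arrest gene was the higher of the pair in one genotype and the lower in the other.

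Perp, a membrane protein gene of p53-induced apoptosis and of desmosomes, was at 7.19 and 14.1 FPKM (log2 ratio 0.97). Sesn2, a stress-induced sestrin, was at 53.9 and 68.2 FPKM (log2 ratio 0.34). Its relative Sesn1 was at 15.1 and 13.3 FPKM. Both sestrins thus differed by less than 1.5-fold. Phlda3, which restrains Akt, was at 53.4 and 61.0 FPKM, and Trp53inp1 (status FAIL), a nuclear cofactor of p53, at 69.1 and 71.6 FPKM. The RNA-binding protein gene Zmat3 was at 24.9 FPKM in both genotypes by its highest entry, but its other entries were at 17.2 and 17.7 FPKM and at 12.1 and 6.58 FPKM, and all 3 had the status FAIL. Of the death receptors, Fas was at 1.14 and 0.425 FPKM (log2 ratio -1.42; chromosome 19, 34365149 to 34402260), and Tnfrsf10b, the mouse TRAIL receptor, at 6.98 and 9.79 FPKM (log2 ratio 0.49). Both receptors were scarce, and Fas was below 1 FPKM in A2 SMA MNs.

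**Figure D3:**
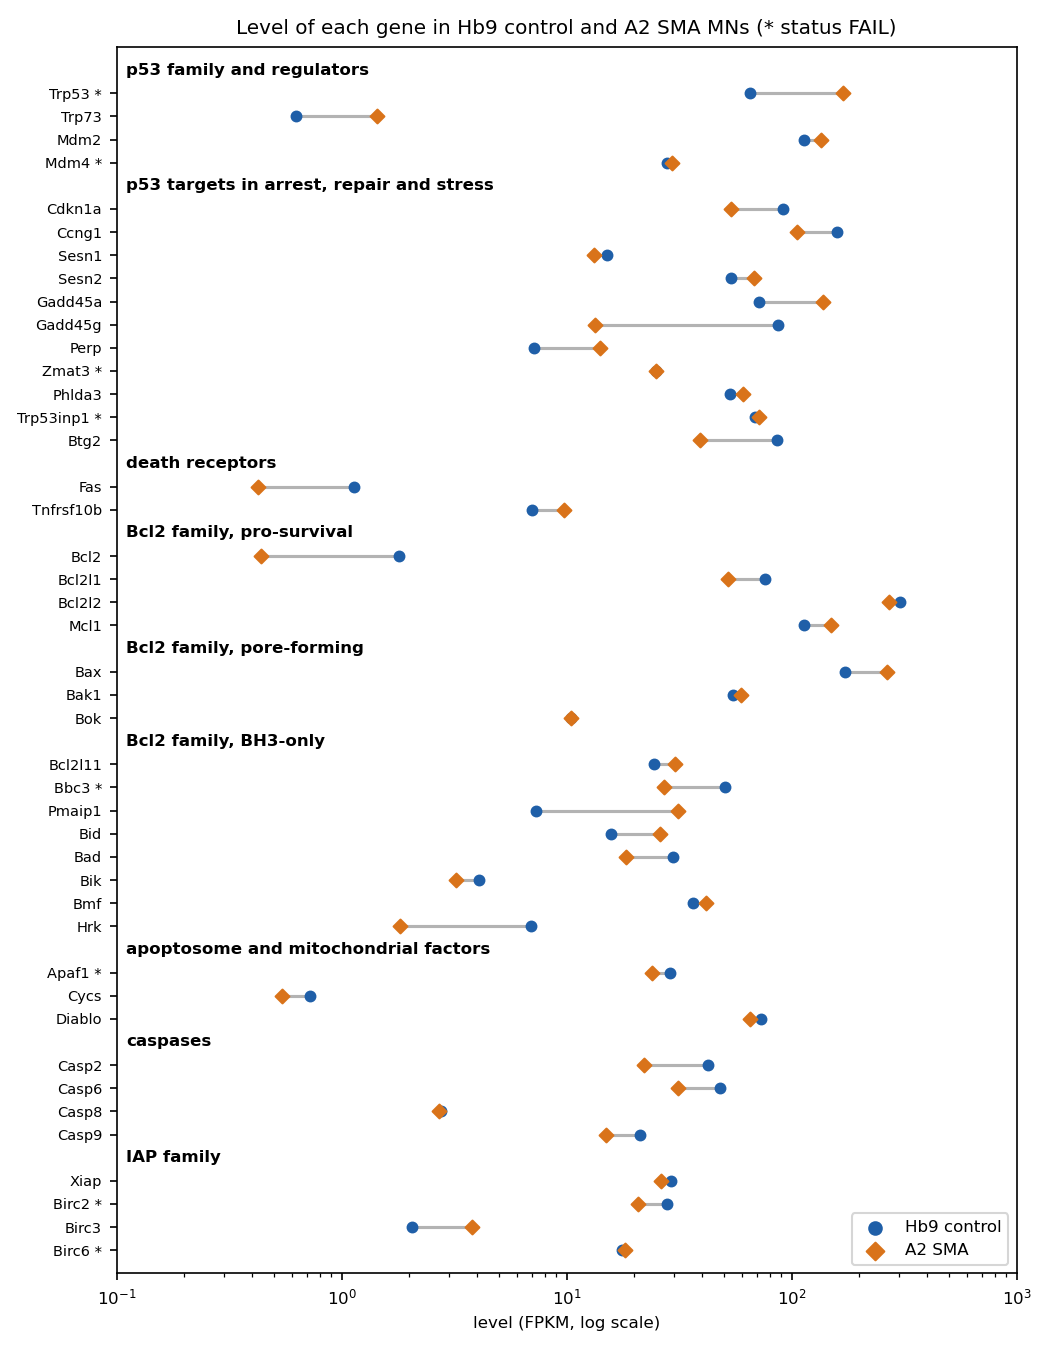
FPKM (log axis) of the 43 genes in Hb9 control (blue circles) and A2 SMA MNs (orange diamonds), grouped by role; each symbol is 1 combined value and an asterisk marks the status FAIL. Levels span 0.625 to 302 FPKM in Hb9 control MNs, and the longest lines belong to Gadd45g, Pmaip1, Bcl2 and Hrk.

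Promoter sequence was examined because many of the genes are known p53 targets. RefSeq start windows (GRCm38.p6, 250 bases before to 50 after the start) were available for 37 of the 43 genes. The p53 decamer (both strands, since it is its own reverse complement) was present in 9 of them (24.3%), against 9.55% of 27025 symbols. These symbols had 32851 windows, and a symbol counted if any of its windows held the decamer. The 9 were Trp53, Mdm2, Cdkn1a, Ccng1, Sesn1, Gadd45a, Bax, Bmf and Birc2. Transcript levels of these 9 were higher in A2 SMA MNs for 5 and lower for 4 (median log2 ratio 0.19, against -0.16 for the 27 matched genes without the decamer, Cycs left out as under 1 FPKM). The genes with a match therefore did not share a direction. A match describes letters and is not a measured binding site. Sequence outside the windows was not searched, so the 27 genes without a match can hold the decamer elsewhere. The stretches of 6 genes are printed because they include the regulator, its inhibitor and targets of opposite direction, with decamers in capitals and 15 flanking bases on each side. Cdkn1a alone had 2 decamers, 12 bases apart, and alone held CATGNNNNNNCATG (searched on both strands, and present in 0.833% of symbols). That motif begins inside the decamer nearer the start and ends in the lower-case bases after it. The stretches lie at chr11:69580269-69580308 (plus strand) for Trp53, chr10:117710920-117710959 (minus) for Mdm2, chr17:29090891-29090952 (plus) for Cdkn1a, chr11:40755447-40755486 (minus) for Ccng1, chr6:67037423-67037462 (minus) for Gadd45a and chr7:45467075-45467114 (minus) for Bax.
Trp53: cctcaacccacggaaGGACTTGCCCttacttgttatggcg
Mdm2: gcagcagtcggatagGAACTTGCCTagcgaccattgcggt
Cdkn1a: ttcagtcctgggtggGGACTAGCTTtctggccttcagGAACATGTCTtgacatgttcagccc
Ccng1: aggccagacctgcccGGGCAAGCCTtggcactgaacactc
Gadd45a: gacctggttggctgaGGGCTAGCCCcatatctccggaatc
Bax: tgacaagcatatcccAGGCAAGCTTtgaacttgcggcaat

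The decamer began 40 bases before the start in Gadd45a, 75 in Trp53, 185 in Ccng1, 186 in Mdm2 and 201 in Bax, and the first of Cdkn1a 73 bases before it. Gadd45a and Cdkn1a, the pair with opposite differences in level, both had it within 100 bases of the start. For each gene this is the start of the matching window, and whether MNs use it was not examined.

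The 15 Bcl2 family genes summed to 908 FPKM in Hb9 control and 987 FPKM in A2 SMA MNs, with 7 higher and 8 lower. Pro-survival genes gave similar sums in both genotypes, pore-forming genes a sum 1.40 times as high in A2 SMA MNs, and BH3-only genes similar sums with other proportions among the 8 genes. Among pro-survival genes, Bcl2 was scarce, at 1.79 and 0.439 FPKM (log2 ratio -2.03, 4.08-fold lower; chromosome 1, 108434755 to 108610851). Bcl2l1, the source of Bcl-xL and a main survival gene of neurons, was at 75.9 and 52.1 FPKM (log2 ratio -0.54). Mcl1, a short-lived survival protein needed by stem cells and neural progenitors, was at 114 and 149 FPKM (log2 ratio 0.39). Mcl1 was thus the higher of this pair in both genotypes, with a level ratio to Bcl2l1 of 1.5 in Hb9 control and 2.87 in A2 SMA MNs. The entry of Bcl2l2 (Bcl-w) had the highest level of the 43 genes, at 302 and 270 FPKM, but it also names Pabpn1 and Gm20521, and their reads cannot be told apart. Without it, the pro-survival sum was 192 and 202 FPKM, and with it 494 and 472 FPKM, so the side with the larger sum depends on this entry.

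Of the pore-forming genes, Bax was at 173 and 265 FPKM (log2 ratio 0.61, or 0.90 relative to the median locus), and 87.8% of loci had a lower ratio. Bak1 was at 55.0 and 59.7 FPKM, at a locus also listed for Ggnbp1 and Zbtb9. Bok was at 10.5 and 10.4 FPKM. The class sum of 239 and 335 FPKM therefore differed mainly through Bax. The level ratio of Bax to Bcl2l1 was 2.29 in Hb9 control and 5.08 in A2 SMA MNs, and that of Bax to Mcl1 was 1.52 and 1.77. Bax exceeded both survival genes in both genotypes, with the wider gap in A2 SMA MNs.

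The 8 BH3-only genes summed to 175 and 180 FPKM, with 4 higher and 4 lower. Pmaip1 (Noxa; chromosome 18, 66618258 to 66625204), a p53 target whose product binds Mcl1, had the highest ratio of all 43 genes, at 7.32 and 31.4 FPKM (log2 ratio 2.10, 4.29-fold higher), and 98.4% of loci had a lower ratio. Its level ratio to Mcl1 was 0.0642 in Hb9 control and 0.210 in A2 SMA MNs, so Pmaip1 remained the lower of the pair. Bbc3 (Puma), the other BH3-only gene known as a main p53 target, was lower at 50.6 and 27.2 FPKM (log2 ratio -0.90, status FAIL). Hrk, a BH3-only gene expressed largely in neurons, was at 6.98 and 1.82 FPKM (log2 ratio -1.94, 3.84-fold lower; chromosome 5, 118619773 to 118639487). The BH3-only gene with the highest level was Bbc3 in Hb9 control MNs and Bmf, linked to the cytoskeleton, in A2 SMA MNs. Bmf was at 36.4 and 41.6 FPKM (log2 ratio 0.19), and Bcl2l11 (Bim), which acts in neurons deprived of trophic factors, at 24.5 and 30.4 FPKM (log2 ratio 0.31). Bid, cleaved by Casp8 to link death receptors to mitochondria, was at 15.7 and 25.9 FPKM (log2 ratio 0.73), while its locus neighbour Bcl2l13 was at 26.6 and 17.7 FPKM. Bad, regulated by growth factor signalling, was at 29.6 and 18.4 FPKM (log2 ratio -0.69), and Gpr137 at the same locus at 27.0 and 12.4 FPKM. Bik was at 4.09 and 3.22 FPKM (log2 ratio -0.34). Bid and its neighbour thus went opposite ways, whereas Bad and Gpr137 were both lower in A2 SMA MNs.

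**Figure D4:**
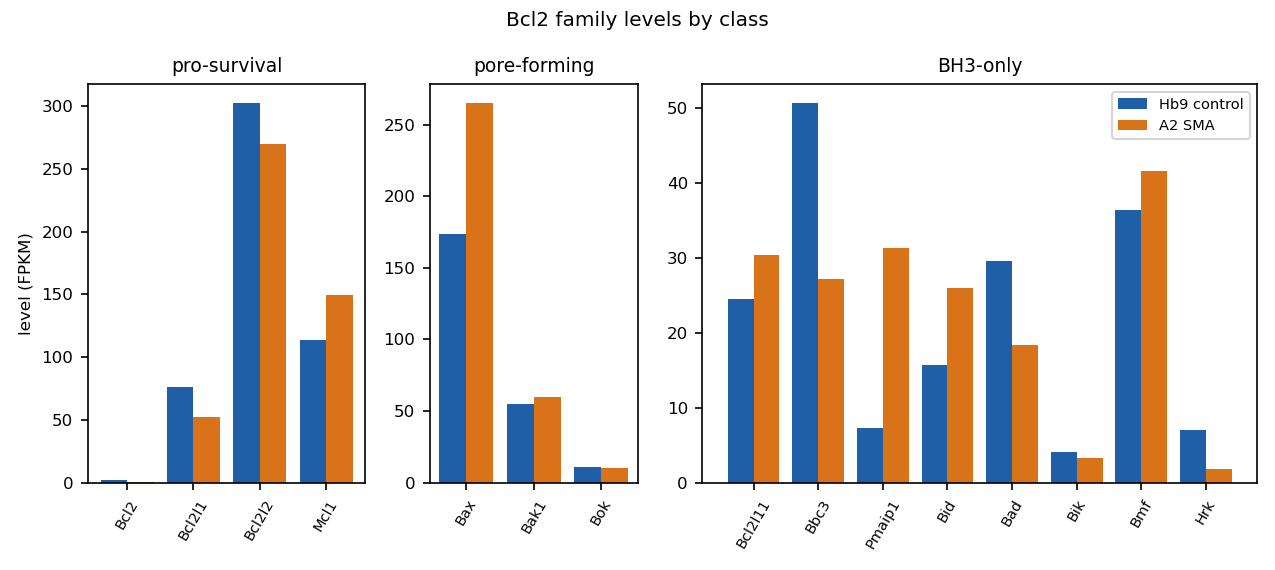
FPKM (linear axes from 0, a separate scale for each panel) of the 15 Bcl2 family genes in Hb9 control (blue) and A2 SMA MNs (orange), each bar 1 combined value without an error. Bax and Pmaip1 are higher and Bbc3 and Hrk lower in A2 SMA MNs; the Bcl2l2 bar also holds Pabpn1 and Gm20521.

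Downstream of mitochondria, Apaf1 was at 28.7 and 23.8 FPKM with the status FAIL, and Diablo, which relieves caspases from IAPs, at 73.4 and 65.1 FPKM. Both differed by less than 1.5-fold. Cycs, the somatic cytochrome c gene, was the only one of the 43 that did not pass 1 FPKM, at 0.726 and 0.544 FPKM. Near-identical processed copies of Cycs exist in the genome and can take its reads, so its level is uncertain. The 4 caspases were all lower in A2 SMA MNs, Casp8 only before centring, with a summed level of 114 and 71.1 FPKM, and 3 of them were also below the median locus. Casp2, the caspase linked to the p53-induced PIDDosome, was at 42.4 and 22.1 FPKM (log2 ratio -0.94). Casp6, an executioner caspase with a role in axon degeneration, was at 47.9 and 31.3 FPKM (log2 ratio -0.61). Casp9, the initiator of the apoptosome, was at 21.3 and 14.9 FPKM (log2 ratio -0.51). Casp8, the initiator at death receptors and the one whose sign turns with centring, was at 2.77 and 2.70 FPKM.

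Of the IAPs, Xiap, a direct inhibitor of Casp9, was at 29.2 and 26.2 FPKM, and the level ratio of Casp9 to Xiap was 0.728 in Hb9 control and 0.570 in A2 SMA MNs. Birc3 was at 2.06 and 3.79 FPKM (log2 ratio 0.88), and its paralog Birc2, whose entry also names C330006D17Rik, at 27.9 and 20.7 FPKM (log2 ratio -0.43, status FAIL). Birc6, a giant ubiquitin-conjugating IAP, was at 17.6 and 18.2 FPKM with the status FAIL. The scarcest of the 4, Birc3, was thus the one with the largest ratio.

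Further genes of both pathways were taken from lists of 32 p53 pathway genes and 39 apoptosis genes outside the 43. Of the 62 that passed 1 FPKM, 3 (4.84%) were at least 2-fold higher and 6 (9.68%) at least 2-fold lower in A2 SMA MNs, where all loci gave 6.83% and 22.4%, and their median log2 ratio was -0.15. Pml, whose nuclear bodies gather p53 and its modifiers, was at 59.9 and 204 FPKM (log2 ratio 1.76). Hipk2, a kinase that activates p53, was at 63.4 and 9.84 FPKM (log2 ratio -2.69). Trp53i11, a p53-inducible gene, was at 238 and 37.7 FPKM (log2 ratio -2.66). These p53-linked genes again differed in both directions. Plk3, a stress kinase, was at 96.8 and 34.8 FPKM (log2 ratio -1.48, status FAIL), and Rrm2b, the p53-induced ribonucleotide reductase subunit, at 6.54 and 2.86 FPKM (log2 ratio -1.19). On the death receptor side, Cflar, an inhibitor of Casp8 activation, was at 7.84 and 3.38 FPKM (log2 ratio -1.21), and the adaptor Tradd at 25.3 and 11.7 FPKM (log2 ratio -1.11). Of the receptors described above, Fas was lower and Tnfrsf10b higher.

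**Figure D5:**
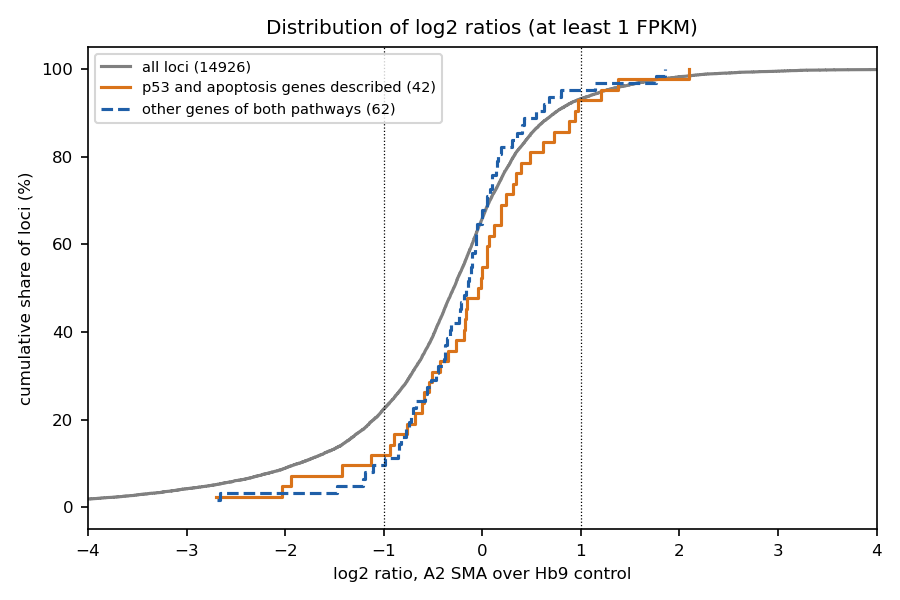
Cumulative share (vertical axis, percent) of log2 ratios, A2 SMA over Hb9 control (horizontal axis, cut at -4 and 4), for all 14926 loci, the 42 genes that passed 1 FPKM and the 62 other genes of both pathways; dotted lines mark 2-fold. Both pathway curves lie below that of all loci on the left side, where 22.4% of all loci, 11.9% of the 42 and 9.68% of the 62 are at least 2-fold lower.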

How the data were processed

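RNA from 3 Hb9 control and 3 A2 SMA samples was sequenced as single-end reads after TruSeq RNA library preparation. The submitters' processing notes name FastQC 0.10.1, cutadapt, TopHat2 2.04, Cufflinks and Cuffdiff, and per the methods reads were mapped to NCBI m37 with Ensembl annotation. The FPKM values deposited by the authors combine the samples of a genotype into 1 value for each of 41945 entries. The authors' fold change, test statistic, p-value, q-value and significance columns hold their own comparison and were not used; the status word was.

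Ratios were formed in Python 3.11.15 with numpy 2.4.6 and pandas 2.3.3, without a pseudocount, over the 14926 entries whose higher value reached 1 FPKM and whose lower value was above 0. A 2-fold difference was counted, with no test. The counting was tested on simulated data. Table starts count from 0, so 1 was added. The 43 genes and all lists were chosen with earlier results of these data known. Named are all 43, other pathway genes at least 2-fold different with 5 FPKM in the higher genotype, the 3 most abundant markers of each list, and genes stated as chosen later. Some genes are not reported here. Alternatives were other folds, pseudocounts, filters, scalings, summed entries, and leaving out FAIL or shared entries. Figures were drawn with matplotlib 3.10.9.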

Additional observations from a re-analysis of the deposited data

How the results depend on the processing

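No gene at least 2-fold different changed direction under an alternative, but centring on the median locus took the median log2 ratio of the 42 genes from -0.03 to 0.26, that of the 15 Bcl2 family genes from -0.01 to 0.28 and that of the other pathway genes from -0.15 to 0.14. The number of the 43 genes at least 2-fold higher (3) became 8 at 1.5-fold, 1 at 4-fold, 7 when centred on the median locus or scaled to the upper quartile, and 6 when scaled to Gusb, Pgk1 and Rpl13a. The number at least 2-fold lower (5) became 11 at 1.5-fold, 2 at 4-fold, and 3 with a pseudocount of 1 FPKM or a filter of 5 FPKM. For the other pathway genes, the number higher (3) became 6 at 1.5-fold, 0 at 4-fold, and 1 with a pseudocount of 1 FPKM or a filter of 5 FPKM. Their number lower (6) became 15 at 1.5-fold, 2 at 4-fold, and 3 when centred on the median locus or scaled to the upper quartile. Over all loci the shares higher and lower under the same settings were 12.7% and 35.4% at 1.5-fold, 1.8% and 8.88% at 4-fold, 10.4% and 16.5% when centred or scaled to the upper quartile, 8.29% and 19.2% when scaled to the 3 reference genes, 4.28% and 17.2% with the pseudocount, and 4.81% and 20% with the filter. A filter of 5 FPKM left Tnfrsf10b as the only death receptor, with a log2 ratio of 0.49. The other 126 medians and counts moved by at most 1.5 times, the number higher of the 43 becoming 2 with a pseudocount of 1 FPKM, with a filter of 5 FPKM or without the status FAIL. Scaling added 0.29 (median locus or upper quartile) or 0.14 (Gusb, Pgk1 and Rpl13a) to every log2 ratio, and the latter changed the sign of 3 genes, Zmat3, Bok and Casp8. No paired analysis was possible because the table gives 1 value per genotype, and for the same reason no sample could be left out.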

Other observations

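Cyct, the testis cytochrome c gene and a paralog of Cycs, was chosen after its values were seen. It was listed at 14.7 FPKM in Hb9 control and 104 FPKM in A2 SMA MNs (log2 ratio 2.82, 7.05-fold higher), and 99.4% of loci had a lower ratio, whereas Cycs was at 0.726 and 0.544 FPKM. How reads of the processed copies of cytochrome c were divided among these entries was not tested.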
